A study of Homo sapiens with 14 samples.

Results

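Chromatin bound by the G444E mutant of GATA3 was compared with and without a FLAG tag, a short peptide joined here to the C-terminal end of the protein. The comparison rests on 4 ChIP-seq libraries (chromatin immunoprecipitation followed by sequencing) of the 12 GATA3 libraries analysed: 2 of G444E without a tag and 2 of G444E with the tag (G444E-FLAG). They were chosen by genotype and tag as labelled, not by any measured value. All 4 came from the cell line MDA-MB-231, a widely used model of triple-negative breast cancer, left untreated, harvested on day 3 and precipitated with the same antibody against GATA3. The lists of the other genotypes, wildtype GATA3 (WT) and the A442M mutant, each untagged and tagged and with 2 libraries a group, were used only for comparison. Empty-vector cells were not analysed here. Without a background list, peaks that do not come from GATA3 cannot be set apart. The labels give neither the promoter that drives the GATA3 copy nor whether a line is 1 clone, and they do not say that replicates were separate cultures. The p-values therefore measure the spread between these libraries, which may be technical. A peak list holds no expression values, so the labelled cell type could not be checked against its markers.

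GATA3 is a zinc-finger transcription factor that binds the letters GATA in DNA, directs the luminal fate of mammary epithelium and is also the master factor of type 2 helper T cells. It is often mutated in luminal breast cancer, and triple-negative lines such as MDA-MB-231 express little of their own. The mutated glycine is the last residue of the protein, and glycine at a C-terminal end can be read by ubiquitin ligases that mark proteins for the proteasome. The G444E change puts glutamate in place of that glycine, and the tag adds residues beyond it. The design text of the study states that the tag stabilises GATA3 whichever genotype carries it. The question of the comparison is thus what the tag adds to the binding map of a protein whose C-terminal residue is already changed.

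The 4 lists held 128541 peaks, which merged into 49166 regions wherever peaks overlapped by 1 bp or more. The 12 lists together held 433307 peaks in 78999 regions. A region is called FLAG-side below when both G444E-FLAG libraries and neither untagged G444E library had a peak there, and untagged-side in the reverse case. Each peak carries the authors' own score, whose scale the files do not name, and it was used only to rank peaks within a list. The percentile of a peak is its rank by score in its own list, with the highest score near 100. Because the longest list held many more peaks than the shortest, each comparison was also made with all 4 lists cut to the 26926 highest-scoring peaks, the length of the shortest list.

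Few one-sided regions touched promoters, and 4 of those promoters are printed because they show what such calls look like. Each line gives the 250 bases before the start site from RefSeq (GRCh38.p14), 5′ to 3′ on the strand of the gene, with a GATA match in capitals, a match being GATA with A or T before it and A or G after it, on either strand. KIF3B, a kinesin motor subunit (chr20:32277401-32277650, plus strand), and CXCL9, an interferon-induced chemokine (chr4:76007510-76007759, minus strand), had the 2 highest-ranked FLAG-side regions among promoters clear of other coding genes. STAT3, a transcription factor of cytokine signalling (chr17:42388443-42388692, minus strand), had a FLAG-side region that the tagged libraries of all genotypes called. RIGI, a sensor of viral RNA (chr9:32526197-32526446, minus strand), had the highest-ranked untagged-side region among such promoters.
KIF3B: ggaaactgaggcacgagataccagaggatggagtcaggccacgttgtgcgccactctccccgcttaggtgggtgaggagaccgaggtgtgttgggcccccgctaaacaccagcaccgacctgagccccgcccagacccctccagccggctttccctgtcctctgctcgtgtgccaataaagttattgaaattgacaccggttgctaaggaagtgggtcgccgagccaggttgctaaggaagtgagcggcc
CXCL9: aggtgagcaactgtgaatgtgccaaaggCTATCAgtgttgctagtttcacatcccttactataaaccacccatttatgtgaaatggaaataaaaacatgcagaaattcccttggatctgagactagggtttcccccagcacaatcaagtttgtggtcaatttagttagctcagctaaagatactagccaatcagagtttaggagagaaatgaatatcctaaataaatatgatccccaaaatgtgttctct
STAT3: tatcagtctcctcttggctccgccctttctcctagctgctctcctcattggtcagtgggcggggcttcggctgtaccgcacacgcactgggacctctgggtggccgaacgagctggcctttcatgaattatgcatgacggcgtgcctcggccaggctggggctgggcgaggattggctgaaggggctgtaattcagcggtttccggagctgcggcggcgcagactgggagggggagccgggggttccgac
RIGI: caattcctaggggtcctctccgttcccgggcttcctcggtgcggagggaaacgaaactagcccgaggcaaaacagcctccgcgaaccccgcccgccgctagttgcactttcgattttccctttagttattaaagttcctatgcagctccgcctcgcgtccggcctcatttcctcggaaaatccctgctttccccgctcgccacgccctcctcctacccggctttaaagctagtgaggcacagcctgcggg

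CXCL9 was the 1 promoter of these 4 with a GATA match, and that match lay outside the called region. The called regions covered 132 (KIF3B), 39 (CXCL9), 17 (STAT3) and 250 (RIGI) of the 250 printed bases. The peak at KIF3B (chromosome 20, 32277519 to 32278245) stood at percentiles 54.0 and 49.2 in G444E-FLAG replicates 1 and 2, and the WT-FLAG replicate 1 and both A442M-FLAG lists also had it. The peak at CXCL9 (chromosome 4, 76007224 to 76007548) stood at 48.1 and 48.9, but 3 untagged libraries of the other genotypes called it as well. The peak at STAT3 (chromosome 17, 42388676 to 42389098) stood at 25.5 and 25.2, and it was called in both WT-FLAG and both A442M-FLAG libraries and in no untagged library. The peak at RIGI (chromosome 9, 32526032 to 32526715), at 39.8 and 35.0 in the untagged replicates, was called in 3 of the 4 tagged libraries of WT and A442M. Its absence from both G444E-FLAG lists was thus not shared by most other tagged lists. Of 22078 promoter windows of coding genes (250 bases before to 50 after a start), 20.1% held a GATA match. Of windows that touched a FLAG-side region, 13 of 51 (25.5%) held one, of those that touched an untagged-side region 0 of 4, and of 485 that touched a region called in all 4 libraries 29.5%. A match was counted anywhere in the window, also outside the region that touched it. It is a run of letters, not a site shown to be bound, and these shares were not tested.

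The tagged lists were longer in both same-number pairs, but the gap was about as large as that between replicates. G444E replicates 1 and 2 held 31200 and 26926 peaks, and G444E-FLAG replicates 1 and 2 held 40389 and 30026. The groups overlapped, since untagged replicate 1 had more peaks than tagged replicate 2. The mean rise was 0.26 in log2, or 1.20-fold, while replicates had an SD of 0.24 (exact permutation test, two-sided, p = 0.667, n = 2 each). Replicate 1 exceeded replicate 2 by 1.16-fold in G444E and 1.35-fold in G444E-FLAG, and the tag went with 1.29-fold more peaks in replicate 1 and 1.12-fold in replicate 2. With 2 libraries against 2 this test cannot go below an exact p = 0.333, and none of the 6 library measures compared passed after Benjamini-Hochberg adjustment (lowest adjusted p = 0.8).

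The length of genome under peaks separated the tag states more cleanly than the number of peaks. Peaks covered 13.1 and 13.3 Mb in G444E replicates 1 and 2, and 16.8 and 16.9 Mb in G444E-FLAG replicates 1 and 2. The 2 tagged libraries both lay above the 2 untagged ones, and replicates were almost level. The rise was 0.36 in log2, or 1.28-fold, while replicates had an SD of 0.012 (exact permutation test, two-sided, p = 0.333, the smallest this design allows, n = 2 each). This measure was added after the values were seen. With lists of equal length the rise was 0.16 in log2 (exact permutation test, p = 0.667), so the separation did not hold there. Read depth is unknown and its part in peak number, width and covered length was not tested.

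**Figure D1:**
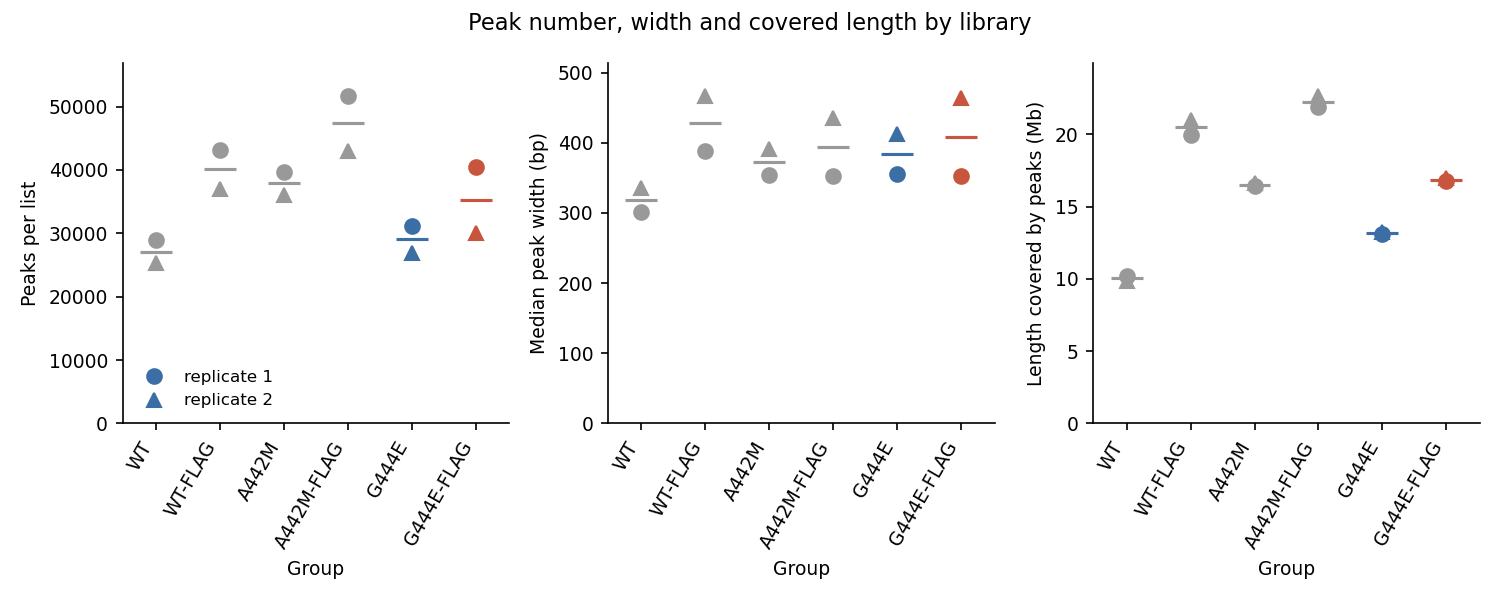
Each point is 1 library (circle, replicate 1; triangle, replicate 2) and each bar a group mean, for the number of peaks, the median peak width in bp and the length under peaks in Mb; untagged G444E is blue, G444E-FLAG red and the other genotypes grey. The G444E and G444E-FLAG points overlap in number and width, while covered length lies at 13.1 and 13.3 Mb against 16.8 and 16.9 Mb.

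Peak width moved with the replicate number, and at shared regions with the tag as well. The median width was 356 and 413 bp in G444E replicates 1 and 2, and 352 and 464 bp in G444E-FLAG replicates 1 and 2. The group difference was 23.5 bp, and its sign differed between pairs, at -4 bp in replicate 1 and 51 bp in replicate 2 (exact permutation test, two-sided, p = 1, n = 2 each). At the 18177 regions called in all 4 libraries, peaks were wider with the tag in both pairs, with a median ratio of 1.05 in replicate 1 (59.8% of regions wider) and 1.12 in replicate 2 (69.5% wider). At the same regions the ratio of replicate 1 to replicate 2 was 0.921 in G444E (38.4% wider in replicate 1) and 0.858 in G444E-FLAG (31.0%), so replicates differed in width by as much as the tag states. Both tagged peaks were wider than both untagged peaks at 4280 of these regions (23.5%), and both were narrower at 1039 (5.72%). The narrowest peak of a list, which depends on how peaks were called, was 194 and 222 bp in G444E and 189 and 244 bp in G444E-FLAG. It moved with the replicate number in the same way as the median width, and its part in the widths was not tested.

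Most strong peaks were shared whatever the tag. All 4 libraries called 18177 regions (37.0% of 49166), and 10008 of these (55.1%) stood above the 50th percentile in all 4 lists. Each list was split into 10 score bands of equal size (deciles). In the highest decile, 100% of G444E replicate 1 peaks and 99.5% of G444E replicate 2 peaks were called in the tagged library of the same number. In the lowest decile the shares were 66.5% and 56.1%. From the tagged side, 99.8% and 99.9% of the highest decile of G444E-FLAG replicates 1 and 2 were called in the untagged library of the same number, against 24.7% and 29.2% of the lowest decile. Differences in calls therefore sat among low-ranked peaks.

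**Figure D2:**
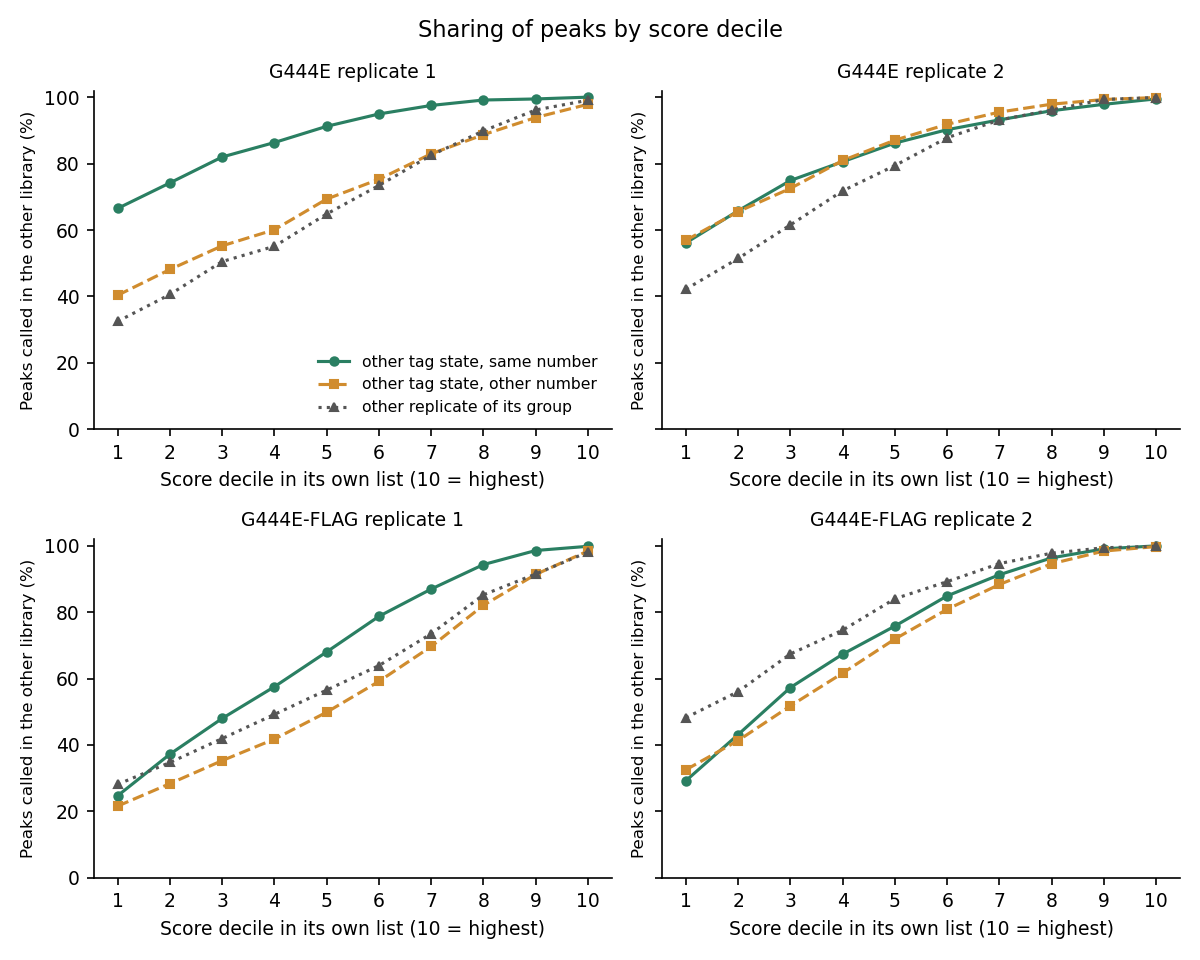
Each panel takes the peaks of 1 library in deciles by score (x axis, 10 the highest) and shows the percent called in the library of the other tag state with the same replicate number, in that with the other number, and in the other replicate of its own group. In the highest decile 97.9% to 100% were called in each of the 3 comparison libraries, and sharing falls toward the lowest decile, to 24.7% for G444E-FLAG replicate 1 in its same-number library.

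The regions called with every library included the top of all lists. TFEB, a transcription factor of lysosomal genes, had a region inside its gene (chromosome 6, 41730145 to 41731320) with scores of 945 and 743 in G444E and 1106 and 751 in G444E-FLAG, at percentiles of 99.99 or more. NR6A1, an orphan nuclear receptor, had one inside its gene on chromosome 9 (124706427 to 124709914) that measured 2445 and 3162 bp without the tag and 1990 and 3107 bp with it. HNF4A, a transcription factor of liver and gut, had one inside its gene on chromosome 20 (44361823 to 44363433), at percentiles between 99.95 and 99.96. At these strongest regions the tagged peaks were not the wider ones in every pair. The remaining 5 of the 8 highest regions lay in or near BTBD9, MDGA1, SP6, ECI2 and MARCHF8, and all 8 were called in the 8 libraries of WT and A442M too. Nearness to a gene does not make that gene a target.

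At the GATA3 gene itself the stronger regions were called in both tag states. GATA3 lies on chromosome 10 from 8045333 to 8075198, and 5 regions lay within 50 kb of it, 3 of them called in all 4 libraries. The region inside the gene (8070722 to 8071941) stood at percentiles 31.2 and 44.1 in G444E and at 46.9 and 25.4 in G444E-FLAG, so the groups overlapped. The region at 8084758 to 8085086, beyond the far end, stood at 53.7 and 59.8 untagged and at 76.1 and 67.8 tagged. The one at 8100394 to 8100870 stood at 51.9 and 38.6 untagged and at 77.7 and 60.4 tagged. Both tagged values lay above both untagged ones at these 2 regions. In full lists the same held for 27.2% of the regions called in all 4 libraries and the reverse for 6.30%, while with lists of equal length the shares were about level (given with the ranks), so nothing is read from it here. The other 2 regions were weak: 8069733 to 8069953 was called in G444E-FLAG replicate 1 alone, and 8122921 to 8123511 in all but G444E-FLAG replicate 2.

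One-sided regions were few and lay mostly on the tagged side while the lists differed in length. There were 1762 FLAG-side regions (3.58% of 49166) and 345 untagged-side regions (0.702%). With lists of equal length the counts were 728 (1.83% of 39799 regions) and 669 (1.68%), so the tagged side went from 83.6% to 52.1% of all one-sided regions. A single region called in 2 libraries against 2 cannot pass a test. Both kinds ranked low: the lower of a region's 2 percentiles had a median of 15.2 on the tagged side and 15.0 on the untagged side, against a median lowest percentile of 54.7 where all 4 libraries called. Only 105 FLAG-side regions (5.96%) and 25 untagged-side regions (7.25%) stood above the 50th percentile in both libraries. Their median widths were 396 and 334 bp, against 662 bp for regions called in all 4, which merge the peaks of more lists. Single peaks at FLAG-side regions had medians of 279 and 346 bp in G444E-FLAG replicates 1 and 2. In the same libraries the medians were 464 and 558 bp at regions called in all 4. Peaks at untagged-side regions had medians of 259 and 289 bp in G444E replicates 1 and 2, against 432 and 477 bp.

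The replicate number divided the 4 lists more often than the tag did. Regions called in both libraries numbered 1 and in neither numbered 2 came to 4926, and the reverse to 1616, together 6542 (13.3%) against 2107 (4.29%) divided by the tag. With lists of equal length the counts were 5582 (14.0%) and 1397 (3.51%). The share of regions called by both of 2 libraries, out of those called by either (the Jaccard index), was 0.633 and 0.650 for G444E with G444E-FLAG of the same number. It was 0.569 between the G444E replicates and 0.537 between the G444E-FLAG replicates, and with equal lists the 4 values were 0.686, 0.666, 0.579 and 0.565 in the same order. By this index each library lay nearer to the other tag state of its own number than to its own replicate. As a share of its own regions this did not hold for G444E-FLAG replicate 2, which had 81.0% in common with the longer list of G444E-FLAG replicate 1 and 74.3% with G444E replicate 2. What the numbers share is not given in the labels. Of the regions seen only in replicate 1 of both groups, 9.01% lay within 1 kb of a start site, beside 3.03% of those seen only in replicate 2, 4.20% of FLAG-side regions and 3.04% of regions called in all 4. With equal lists the first 2 shares were 6.26% and 3.59%, and none of these shares was tested. A further 14698 regions (29.9%) were called in 1 library only, 7924 of them in G444E-FLAG replicate 1, the longest list.

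**Figure D3:**
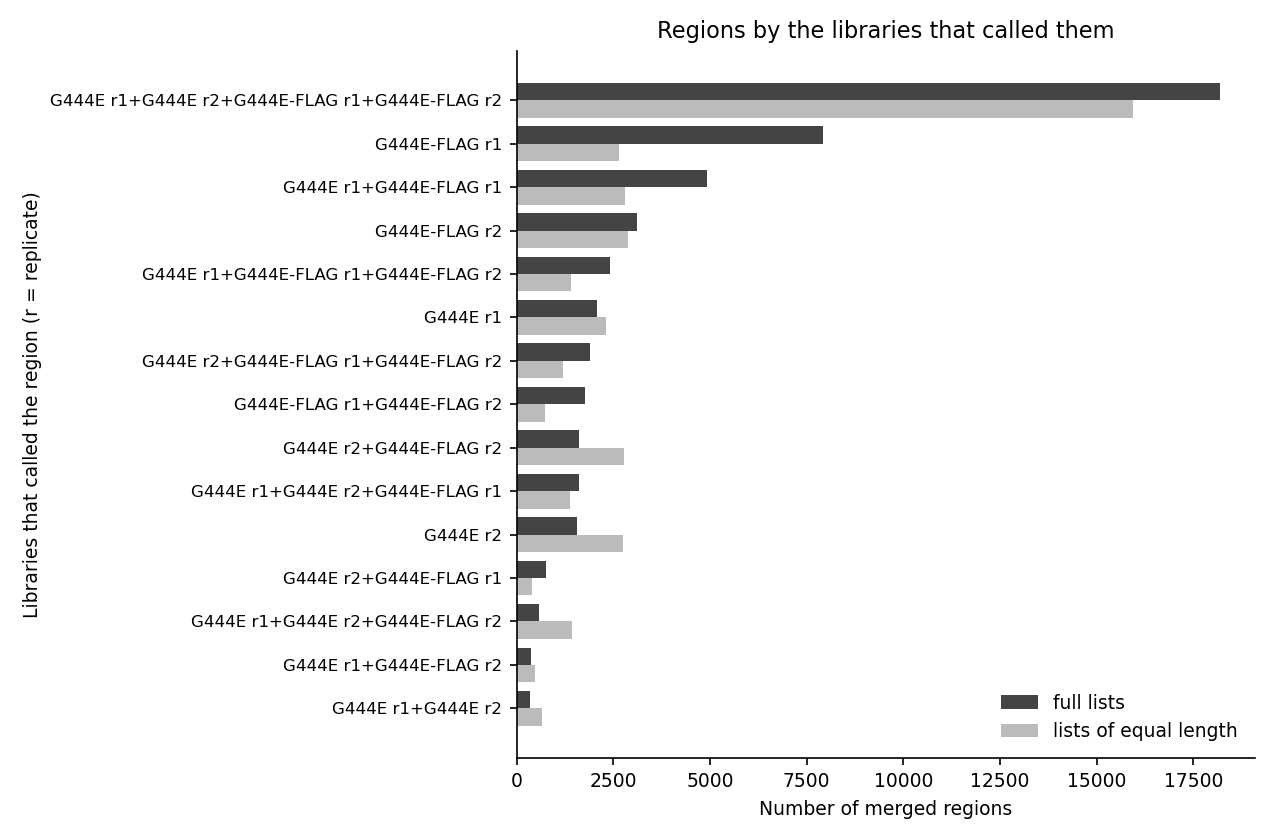
Bars count merged regions (x axis) by the set of libraries that called them (y axis), dark for full lists and light for lists of equal length. After the 18177 regions of all 4 libraries, the largest pattern shared by 2 libraries is replicate 1 of both groups (4926), above both G444E-FLAG libraries (1762) and both G444E libraries (345).

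The strongest FLAG-side regions lay inside or near genes of varied function. SMYD3, a lysine methyltransferase, had the highest one, inside its gene (chromosome 1, 246003070 to 246003471), at percentiles 92.4 and 87.4 in G444E-FLAG replicates 1 and 2, with no peak in either G444E library. Of the 8 WT and A442M libraries, 7 called it, 3 of them untagged. IGF1R, the receptor of insulin-like growth factors, had one inside its gene (chromosome 15, 98904424 to 98904869) at 86.8 and 75.8, called in all 8. The IGF1R region was thus missing from no library but the untagged G444E ones.

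CGN, which encodes the tight-junction protein cingulin, had a FLAG-side region inside its gene (chromosome 1, 151534691 to 151534996) at 79.8 and 88.0, called in 5 of the 8. TNFRSF21, a death receptor of the tumour necrosis factor family, had one inside its gene (chromosome 6, 47274795 to 47275443) at 76.1 and 74.8, called in 6 of the 8. PNPLA8, a phospholipase, had one inside its gene (chromosome 7, 108497107 to 108497407) at 76.8 and 87.1, called in all 4 other tagged libraries and in 1 untagged one. CEP350, a centrosome protein, and SLC17A1, a phosphate transporter of the kidney, had regions called in all 4 other tagged libraries and in both untagged A442M libraries. The region nearest to TPD52-MRPS28, a read-through gene, on chromosome 8 (80249679 to 80249979) stood at 90.5 and 81.3 and was called in 1 other library, A442M-FLAG replicate 1. It was the exception among the 12 highest, since each of the other 11 was called in at least 5 of the 8 libraries. A further 3 of the 12 lay more than 100 kb from a coding gene, on chromosomes 13, 1 and 5.

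The strongest untagged-side regions were called in the untagged libraries of the other genotypes, and some of them in the tagged ones too. PHEX, an endopeptidase of phosphate balance, had the highest, inside its gene (chromosome X, 22134660 to 22135028), at percentiles 86.1 and 85.7 in G444E replicates 1 and 2. All 4 untagged WT and A442M libraries called it, and none of the 4 tagged ones. MED27, a subunit of the Mediator complex, had one inside its gene (chromosome 9, 132008339 to 132008645) at 80.7 and 65.8, called in all 4 untagged libraries and in 1 tagged one. NHSL2 had one inside its gene (chromosome X, 72029910 to 72030230) at 76.0 and 76.8 with 1 tagged call as well. A further 4 of the 8 highest lay more than 100 kb from a coding gene, all 4 called in every untagged WT and A442M library. Of these, the one on chromosome 3 (18870555 to 18871074) was called in all 4 tagged libraries as well, the one on chromosome 17 (69672871 to 69673188) in 3, and those on chromosomes 20 and 4 in 1 each. All 12 FLAG-side and 8 untagged-side regions of this ranking kept their calls with lists of equal length and with a score of at least 10.

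FLAG-side regions were called more often in the tagged libraries of WT and A442M, which had no part in choosing them. The untagged WT replicates 1 and 2 called 19.6% and 18.9% of the FLAG-side regions, and the untagged A442M replicates 43.3% and 44.0%. WT-FLAG replicates called 70.8% and 71.1%, and A442M-FLAG replicates 75.9% and 71.7%. Every tagged library called more of them than every untagged one. The tagged lists were longer, and of all 49166 regions the untagged WT lists called 46.7% and 41.5%, the untagged A442M lists 65.7% and 60.5%, the WT-FLAG lists 74.6% and 66.5% and the A442M-FLAG lists 74.8% and 65.8%. With all 12 lists cut to 25248 peaks, 672 regions were FLAG-side. The untagged WT lists called 22.9% and 19.5% of these and the untagged A442M lists 35.3% and 34.2%, against 60.6%, 60.4%, 59.2% and 58.8% in the tagged lists. Of all 37003 regions of that setting the 8 lists called between 51.5% and 64.1%. The untagged lists thus called fewer FLAG-side regions than regions in general in both settings.

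Untagged-side regions were not ordered by the tag in full lists. They were called at 44.3% and 42.9% in WT, 64.1% and 62.9% in A442M, 57.1% and 54.5% in WT-FLAG, and 50.4% and 54.5% in A442M-FLAG. With all 12 lists cut to one length, 617 regions were untagged-side, a set drawn anew from the cut lists. The untagged WT lists called 52.2% and 50.6% of these and the untagged A442M lists 51.1% and 48.0%, against 32.7%, 39.1%, 26.3% and 30.8% in the tagged lists. With that cut the tagged lists were below the untagged lists in every case. Of all 37003 regions of that setting the untagged lists called 52.2% and 51.5% in WT and 59.5% and 59.6% in A442M. The tagged lists called 63.5%, 64.1%, 56.9% and 56.6%. The untagged WT lists were thus about level with their shares of all regions, and the untagged A442M lists below theirs.

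The difference between the share of FLAG-side and of untagged-side regions called was 40.3 percentage points larger in tagged than in untagged libraries. All 4 tagged libraries had a positive difference and all 4 untagged ones a negative one (exact permutation test within genotype, two-sided, p = 0.0556, the smallest that 36 arrangements allow). With the 12 lists cut to one length it was 50.004 points (exact permutation test, p = 0.0556). Leaving out G444E-FLAG replicate 2, so that 1 library defined the tagged side, lowered it to 14.0 points, and leaving out G444E-FLAG replicate 1 to 25.5 points. The tag of the WT and A442M libraries went with another feature of their lists: peaks on contigs outside the assembled chromosomes numbered 57 to 110 in the untagged WT and A442M lists and 16 to 24 in the tagged ones. In G444E they numbered 16 and 14 untagged and 23 and 16 tagged. In WT and A442M the tag and whatever sets the lists apart on contigs cannot be told apart.

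**Figure D4:**
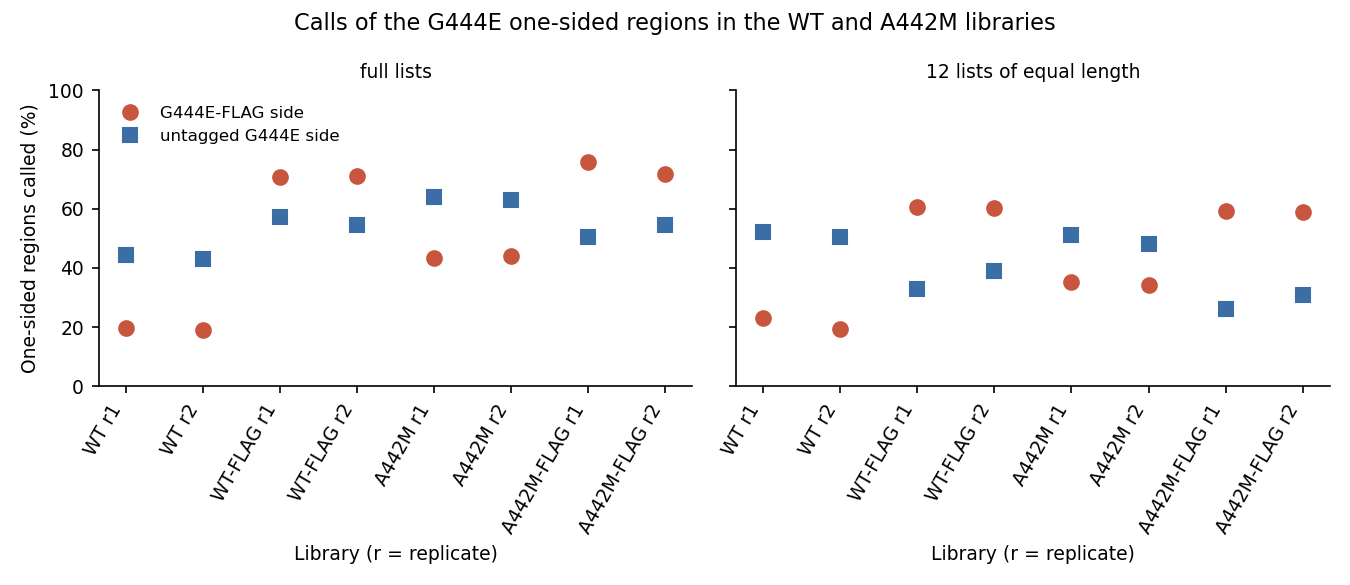
Points give the percent of FLAG-side (red circles) and untagged-side (blue squares) G444E regions called in each WT and A442M library (x axis), with full lists on the left and the 12 lists cut to one length on the right. The circles lie above the squares in all 4 tagged libraries and below them in all 4 untagged ones, in both panels.

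Calls that followed the tag in every genotype were a minority of the one-sided regions. Of the 1762 FLAG-side regions, 237 were called in all 4 tagged and no untagged library of WT and A442M, the STAT3 promoter region among them. Of the 345 untagged-side regions, 16 showed the reverse, with the PHEX region among them, and 12 went against the tag, called in all 4 tagged and no untagged library. Of the 18177 regions called in all 4 G444E libraries, 264 were called in all 4 tagged and no untagged library and 5 in the reverse. These counts are from full lists, in which the tagged lists of WT and of A442M were longer than the untagged ones. The same patterns over all 49166 regions, or with lists of equal length, are not given here. Another 70 FLAG-side regions and 18 untagged-side regions were called in all 8 libraries, and 38 and 7 in none of the 8. FLAG-side calls seen with G444E alone were therefore 2.16% of the total, against 2.03% on the untagged side and 2 of 18177 regions called in all 4.

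The tag divided the G444E lists less than those of the other genotypes by count. By the same definition, regions divided by the tag made up 21.1% of the 58391 WT regions and 17.1% of the 69021 A442M regions, against 4.29% in G444E. Regions divided by replicate number made up 5.61%, 6.48% and 13.3% in the same order. With lists of equal length the shares by tag were 20.8%, 17.6% and 3.51%. These shares were not tested against each other, and the contig peaks given above differ between tag states in WT and A442M but not in G444E.

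The tag effects on list size were compared between genotypes. The tag effect on peak number in G444E, 0.26 in log2, was 0.18 below the mean of those in WT (0.57) and A442M (0.32) (exact permutation test of the interaction, two-sided, p = 0.519 over 216 arrangements). The effect on covered length, 0.36 in log2, was 0.37 below the mean of WT (1.03) and A442M (0.43) (p = 0.0556 by the same exact test, adjusted p = 0.222 over 4 measures). Neither difference passed.

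Ranks at shared regions moved less with the tag than between replicates. At the 15930 regions called in all 4 lists of equal length, the percentile was turned into a normal score, on which 1 unit is 1 SD of a normal distribution. Both tagged percentiles were above both untagged ones at 2382 regions (15%) and below at 2408 (15.1%). The correlation of normal scores across these regions, which are not independent, was 0.859 and 0.877 between tag states of the same number. It was 0.797 between the G444E replicates and 0.761 between the G444E-FLAG replicates. The median absolute difference in percentile was 6.66 and 6.28 points between tag states of the same number, and 8.29 and 9.50 points between replicates of G444E and G444E-FLAG.

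No region passed the test of a rank difference. limma found 0 regions higher (0%) and 0 lower (0%) in G444E-FLAG at an adjusted p under 0.05 among 15930 tested, with a lowest adjusted p of 0.9998. At an unadjusted p under 0.05 there were 463 (2.91%), and with the replicate number as a block 1597 (10.03%), again with 0 past adjustment (lowest adjusted p = 0.487). By definition a share of 0.05 is expected when nothing differs, so the first share lay below it and the second above. The main fit counts differences between replicate numbers as noise, and the block takes them out. Regions are not independent, and these shares were not tested. In data simulated for this comparison over 15930 regions, limma called 1 of 67 regions with a change of 1 unit, 40 of 67 with 2 units and 61 of 66 with 3 units. In the simulated data, changes of about 1 unit in rank were thus rarely detectable with 2 libraries a group. The simulated noise was independent between libraries, whereas here same-number libraries were closer than replicates. The rates also depend on how many regions were given a change, so they need not hold for these lists.

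**Figure D5:**
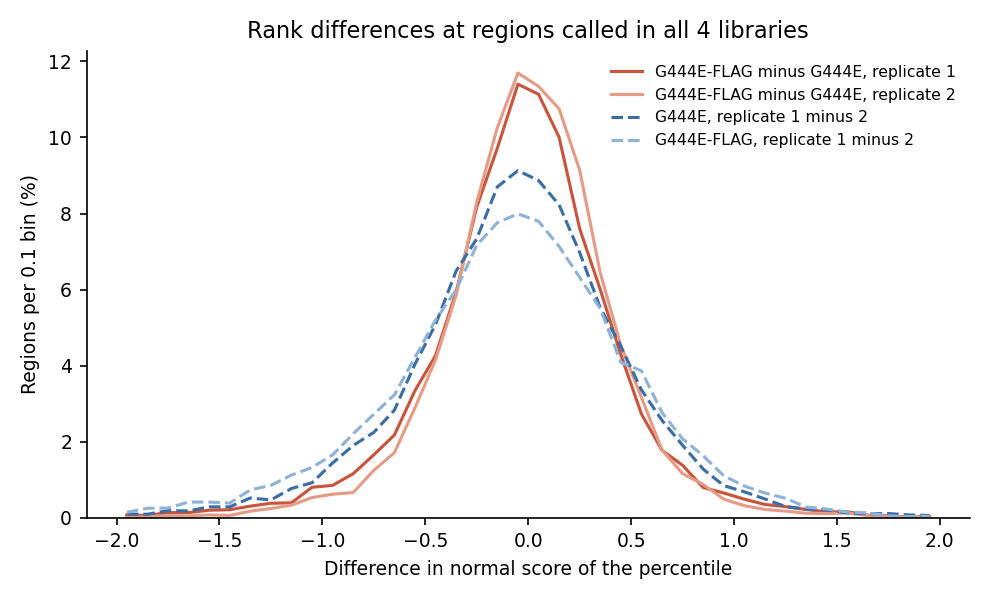
Lines give the percent of the 15930 shared regions (y axis, per bin of 0.1) by their difference in the normal score of the percentile (x axis), solid for G444E-FLAG minus G444E of the same number and dashed for replicate 1 minus replicate 2 of a group. The solid lines are narrower than the dashed ones, with median absolute differences of 6.66 and 6.28 percentile points against 8.29 and 9.50.

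The regions with the largest rank differences are given by size, since none passed. Near GRK3, a kinase of G-protein-coupled receptors, a region on chromosome 22 (25548858 to 25549266) stood at percentiles 52.6 and 51.0 in G444E replicates 1 and 2 and at 0.223 and 3.96 in G444E-FLAG. Its difference was -2.34 units (SE 0.40; limma, adjusted p = 0.9998), and the groups did not overlap. MRPL48, a protein of the mitochondrial ribosome, had a region inside its gene on chromosome 11 (73859659 to 73859992) that stood at 4.33 and 21.0 untagged and at 75.4 and 59.2 tagged, a difference of 1.72 units. ABHD2, a lipase of the alpha/beta hydrolase family, had 1 region of each kind on chromosome 15. Inside the gene (89112092 to 89112575) percentiles were 5.63 and 0.160 untagged and 41.9 and 35.6 tagged. Outside its span (88982350 to 88982712) they were 50.7 and 33.2 untagged and 2.91 and 4.09 tagged. Opposite differences in rank thus lay nearest to the same gene.

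CYRIB, a regulator of RAC1 and the actin cytoskeleton, had a region on chromosome 8 (129971681 to 129972347) at 2.97 and 8.53 untagged and at 58.5 and 44.0 tagged. RBMS3, an RNA-binding protein gene, had one 94318 bp outside its span on chromosome 3 (29185977 to 29187530) at 4.54 and 27.9 untagged and at 78.6 and 55.3 tagged. RASA4B, a gene with a near-identical copy (RASA4) to which reads may be misplaced, had one on chromosome 7 (102497036 to 102497631) at 4.80 and 1.91 untagged and at 21.9 and 58.8 tagged. CCNY, a cyclin, had one inside its gene on chromosome 10 (35552742 to 35553236) at 22.2 and 57.1 untagged and at 0.0446 and 14.9 tagged. At a further region inside SMYD3 (chromosome 1, 245971283 to 245972151) the groups overlapped, with 72.7 and 0.0501 untagged against 83.8 and 36.3 tagged. The region near NR0B1, an orphan nuclear receptor, on chromosome X (30283479 to 30284391) overlapped too, with 69.8 and 45.2 against 53.4 and 0.119. The last 2 of the 6 falls, on chromosomes 18 and 7, lay more than 100 kb from a coding gene.

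Genes were described by lists of 231 genes in 14 groups, counted as near a region within 50 kb. FLAG-side regions lay near 2352 of all 20037 coding genes (11.7%) and near 43 of the 231 list genes (18.6%). Untagged-side regions lay near 405 coding genes (2.02%) and 7 list genes (3.03%). With lists of equal length both sides came to 15 list genes (6.49%), beside 1061 coding genes (5.30%) on the tagged and 783 (3.91%) on the untagged side. List genes were also nearer to regions in general, since 153 of 231 (66.2%) had a region of all 4 libraries nearby against 52.7% of coding genes. The lists held 11 to 22 genes each, so a count of none on the untagged side is close to the 2.02% of all coding genes. The counts were not tested.

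Among epithelial genes, 4 of 22 luminal genes had a FLAG-side region nearby and none an untagged-side one, beside 11.7% and 2.02% of coding genes. ELF3, an epithelial transcription factor, had 2, of which one (chromosome 1, 202022169 to 202022457) stood at percentiles 48.6 and 34.6 in G444E-FLAG. ERBB3, a receptor that pairs with HER2, had one at 56.3 and 49.1 (chromosome 12, 56071748 to 56072041), called in 5 of the 8 libraries of the other genotypes. KRT18, a luminal keratin, had one at 29.7 and 12.6, which lay inside KRT8, another gene of the list. Of 16 basal genes, 4 had a FLAG-side region, among them the integrin genes ITGA6 and ITGB4 and the keratin gene KRT17, and 1 an untagged-side region. Of 18 mesenchymal genes, 4 had a FLAG-side region and none an untagged-side one. The regions near the receptor kinase gene AXL, the transcription factor gene TWIST1 and the vimentin gene VIM had lower percentiles of 10.6, 7.19 and 10.4. After the cut to equal length a FLAG-side region lay near 3 luminal genes, 0 basal genes and 1 mesenchymal gene, beside 5.30% of coding genes.

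Genes of 2 signalling pathways were counted next, beside the same 11.7% (FLAG-side) and 2.02% (untagged-side) of all coding genes. Of 22 Hippo pathway targets and factors, 4 had a FLAG-side region and 1 an untagged-side one, with 22 of 22 near a region of all 4 libraries. CRIM1, a transmembrane regulator of bone morphogenetic proteins, had 3 FLAG-side regions, whose lower percentiles reached 7.91, and the transcription factor TEAD1 had 2, at up to 12.3. AJUBA, a LIM-domain scaffold, had one at 28.9. Of 16 genes of the TGF-beta pathway, 3 had a FLAG-side region and 1 an untagged-side one. SKIL, a repressor of SMAD signalling, had 2, of which one (chromosome 3, 170429035 to 170429427), inside CLDN11, stood at 68.0 and 63.5. SMURF1, a ubiquitin ligase of the pathway, had one at 79.9 and 42.7 (chromosome 7, 99163810 to 99164380) inside KPNA7, and the inhibitory SMAD7 one at 5.65. After the cut to equal length, 3 Hippo genes and 2 TGF-beta genes had a FLAG-side region, and 2 and 3 an untagged-side one. All coding genes then stood at 5.30% (FLAG-side) and 3.91% (untagged-side).

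Among transcription factors, the GATA family and the AP-1 family were counted, beside 11.7% (FLAG-side) and 2.02% (untagged-side) of all coding genes. Of 16 genes of the GATA family and its cofactors, 1 had FLAG-side regions and 1 an untagged-side one. RUNX1, a partner of GATA factors in blood, had 2 FLAG-side regions inside its gene, the stronger (chromosome 21, 34952793 to 34953338) at 25.4 and 26.1 and called in all 4 other tagged libraries and in no untagged one. TRPS1, a GATA-type repressor of breast epithelium, had an untagged-side region inside its gene (chromosome 8, 115558688 to 115559303) at 27.6 and 29.3, called in all 4 other tagged libraries and in 1 untagged one. Of 11 AP-1 genes, FOSL2 and JUN had a FLAG-side region, with lower percentiles of 11.4 and 2.16. Once the lists were of equal length, neither family had a gene near a FLAG-side region, beside 5.30% of coding genes. An untagged-side region then lay near 2 GATA family genes and 1 AP-1 gene, beside 3.91% of coding genes.

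Of 20 ubiquitin and proteasome genes, 70% lay near a region of all 4 libraries, against 52.7% of coding genes. A FLAG-side region lay near 6 of the 20 (30%, beside 11.7% of coding genes) and an untagged-side one near none (beside 2.02%). FBXW7, a substrate receptor of ubiquitin ligases, had 2, of which one inside its gene (chromosome 4, 152525721 to 152526154) stood at 59.03 and 31.8. DCAF5, a substrate receptor of CUL4 ligases, had 2 inside its gene. One (chromosome 14, 69072923 to 69073192) stood at 18.1 and 23.3 and was called in none of the 8 libraries of WT and A442M. The other (69077745 to 69078135), at 16.0 and 15.4, was called in all 4 tagged and no untagged library. CUL4B, a cullin scaffold, had one with a lower percentile of 12.1. Of 18 cell cycle genes, 3 had a FLAG-side region: CCNB1, CDK4 and E2F1, at lower percentiles of 7.35, 10.4 and 17.4. In equal lists 2 ubiquitin and proteasome genes and 1 cell cycle gene had a FLAG-side region, and 1 and 2 an untagged-side one. The shares of all coding genes were then 5.30% (FLAG-side) and 3.91% (untagged-side).

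Lists of other cell types and of housekeeping genes were counted the same way, beside 11.7% (FLAG-side) and 2.02% (untagged-side) of coding genes. Of 14 housekeeping genes, 4 had a FLAG-side region and 2 an untagged-side one. TUBB, a tubulin gene, had a FLAG-side region at 78.5 and 36.9 on chromosome 6 (30764075 to 30764507), which lay nearer to IER3. ACTB, the beta-actin gene, had an untagged-side region with a lower percentile of 0.256. Of 17 T cell genes, 6 had a FLAG-side region, among them CD28 and the neighbours CD3D and CD3E, which share 1 region with a lower percentile of 9.29. In equal lists 0 of the 17 T cell genes had a FLAG-side region and 1 an untagged-side one, beside 5.30% and 3.91% of coding genes. No erythroid gene of 15 had a one-sided region, and of 15 neuronal genes only SNAP25 had one, on the tagged side in full lists and none with equal lists. Of 15 muscle genes, 2 (13.3%) had a FLAG-side region in full and in equal lists, beside 11.7% and 5.30% of coding genes. MYOD1, the myogenic master factor, had a FLAG-side region (chromosome 11, 17691806 to 17692168) at 39.3 and 47.3, called in all 4 other tagged and no untagged library. MYH7 had a FLAG-side region inside NGDN (chromosome 14, 23478406 to 23478740) at 68.4 and 26.1, called in 6 of the 8 libraries of WT and A442M. TTN, the titin gene, had an untagged-side region inside it (chromosome 2, 178671577 to 178672035) at 49.3 and 53.1 that all 8 libraries of WT and A442M called.

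The tag states overlapped in where peaks lay along genes. The share of peaks within 1 kb of a coding gene end was 5.65% and 4.46% in G444E replicates 1 and 2, and 6.71% and 4.62% in G444E-FLAG. The difference of 0.609 percentage points was below the SD of replicates, 1.21 (exact permutation test, two-sided, p = 0.667, n = 2 each), and with lists of equal length it was -0.0984. Between 51.9% and 53.1% of peaks lay inside a coding gene in the 4 lists. FLAG-side regions lay inside genes in 55.9% of cases, untagged-side regions in 50.7% and regions of all 4 libraries in 52.6%, with no test. The median distance to the nearest start site was 44.3 kb for FLAG-side, 64.2 kb for untagged-side and 48.8 kb for regions of all 4 libraries.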

How the data were processed

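Peaks were called per library with MACS2 2.1.4 on hg38, and FastQC was used, per the submitters' processing notes. Not given in the sources used here are the aligner and the control, and no filter is described. Peaks are numbered by name, and 89.1% to 92.0% of the numbers were present in a list. Some called peaks had therefore been left out of each list. Each of the 12 deposited lists has 5 columns, the last a score per peak, the authors' own value of at least 5.00 in every list on a scale the files do not name. Read numbers were not used here, which leaves depth unknown. The G444E and G444E-FLAG lists (4 libraries) were merged at an overlap of 1 bp, and a region counted as called in a library with a peak in it. In a region with several peaks of a list, the highest score was used.

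Normal scores of within-list percentiles were tested with limma 3.58.1 in R 4.3.3, with Benjamini-Hochberg adjustment and a threshold of 0.05, after the fit was tested on simulated data. Values per library went into two-sided exact permutation tests in Python 3.11.15. Genes came from RefSeq (GRCh38.p14, the chromosome coordinates of hg38), 20037 coding genes as spans without strand or exons, so exons and introns were not assigned. Promoter windows were matched by gene identifier for 15843 of them. Coordinates are 1-based. Named are the 12 FLAG-side and 8 untagged-side regions with the highest lower percentile, the 8 highest called in all 4 libraries, the 6 largest rises and 6 largest falls in rank, up to 3 genes a list with the most one-sided regions, GATA3, and up to 4 promoters a side. Of these, 2 regions are not reported here. Regions take the name of the nearest coding gene within 100 kb. Those given for a list gene lie within 50 kb of it, and the nearest coding gene is often another. Examples are EIF1 for the KRT17 region and UBE4A for the region shared by CD3D and CD3E. The STAT3 region, 1 of those promoters, was singled out after its calls were seen. The comparison and the gene lists were chosen with earlier results of these data known.

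Replicates are numbered 1 and 2, with no label on what a number stands for. Over the 15 pairs of groups, the difference in calls between replicates 1 and 2 correlated at 0.113 to 0.290 across regions. On that ground, which is not in the labels, libraries of the same number were compared as pairs. The main tests and the simulated data did not pair the libraries, and only the replicate block, an alternative, did so. Alternatives were a minimum score of 10, lists of equal length, calls covering 50% of a region, regions of the 12 lists, other windows, leaving out each library and a replicate block. Those added after the values were seen were start sites for gene ends, a score of 10 with equal lists or with the block, covered length, and leaving out each WT and A442M library.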

Additional observations from a re-analysis of the deposited data

How the results depend on the processing

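Lists of equal length moved the FLAG-side count to 728 and the untagged-side count to 669, and with a score of at least 10 as well the FLAG-side count to 506, the untagged-side count then being 514. The 43 list genes near a FLAG-side region became 15 with equal lists and 22 within 10 kb, and the 7 near an untagged-side region became 15 with equal lists. Leaving out 1 library gave 3648 to 9827 FLAG-side and 922 to 2445 untagged-side regions, since 3 libraries then decide a side. The difference in median width turned to -5 bp without G444E replicate 1 and -32.5 bp without G444E-FLAG replicate 2, and reached 79.5 bp without G444E-FLAG replicate 1. The difference in the share at gene ends turned to -0.0984 points with equal lists and -0.44 points without G444E-FLAG replicate 1, with 1.66 as the highest value without a library. The difference of tag effects on peak number ranged from -0.39 to 0.038 in log2, the last without G444E-FLAG replicate 2. The cause of these turns was not tested. The log2 rise in peaks ranged from 0.05 to 0.48 without single libraries, and that in covered length from 0.35 to 0.37. The difference in calling one-sided regions, 40.3 points, ranged from 14.0 to 41.8 points without single libraries, lowest without G444E-FLAG replicate 2. Its p was 0.0556 with labels permuted within genotype, the main test (exact permutation test). With labels permuted over all 8 libraries regardless of genotype its p was 0.0286, the smallest that 70 arrangements allow (exact permutation test). With the replicate block, which pairs the libraries by number, its p was 0.125, the smallest that the block allows, and that of peak number, 0.26 in log2, was 0.5 (exact permutation tests). The block left 0 regions past the limma threshold and changed no other call. The score's scale, the depth and the background are unknown, so a missing call is not a shown absence of binding, and 2 libraries a group limit each test.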
